A study of Homo sapiens with 12 samples.

Results

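Genes that act in S phase and in G2/M of the cell cycle were examined in melanoma cells that expressed wild-type or cleavage-resistant TYRO3. The set holds 42 genes, 20 of S phase and 22 of G2/M, and was defined by function. No measured value enters its definition, but it was proposed with earlier results of these data known. These 42 were among the 35579 genes to which the transcripts of the deposited tables could be assigned, and all 42 were among the 15098 genes that passed the filter on low counts. RNA was sequenced from WM-266-4, a human melanoma cell line that carried a stable lentiviral knock-down of TYRO3 in every group, the control included. The cells were transfected with the plasmid pEZY-myc-his encoding GFP (the control), wild-type TYRO3 (WT), TYRO3 with the substitution I449A, which makes it resistant to gamma-secretase (ΔGS), or TYRO3 with the substitutions P408A, L409P and G419P, which make it resistant to ADAM proteases (ΔADAM). All cells were grown in serum with puromycin and kept without serum overnight before RNA was extracted. The 4 transfections were made side by side in 3 numbered experiments, which gives 12 libraries in 4 groups of 3. Each group is a bulk transfection of 1 cell line, and the share of transfected cells was not measured in these files. The question addressed here was whether the transcripts of the cell cycle genes differed between the transfections within an experiment.

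A cell copies its DNA in S phase and divides in M phase. The transcripts of S phase rise first, under the E2F transcription factors, and encode the helicase that opens the DNA, the proteins of the replication fork and the enzymes that make deoxynucleotides. The transcripts of G2 and mitosis rise later, under FOXM1 and the DREAM and MuvB complexes, and encode cyclin B and CDK1, the mitotic kinases, the spindle checkpoint and the kinetochore. In a bulk library the levels of both sets follow the share of cycling cells, and fewer cycling cells cannot be told apart from less RNA of these genes in each cell.

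The promoters of the genes carry different letters in the 2 sets. Promoters of 300 bases, from 250 before to 50 after the transcription start, were taken from RefSeq (GRCh38.p14) and were found for 16 S-phase genes (24 start sites) and 16 G2/M genes (21 start sites). MCM4, MCM5, CCNE2, CDK2, AURKA, BIRC5, FOXM1, TPX2, TTK and UBE2C had no entry. The letters TTTGAA (the CHR element) and CCAAT (the NF-Y element) were searched on both strands. An E2F site was counted where the letters read TTCCCGC or else TTCGCGC or else TTGCCGC or else TTGGCGC on either strand. An E2F site was found in 62.5% of the S-phase promoters, 23.8% of the G2/M promoters and 13.0% of all 35116 promoters of this length. A CHR element was found in 57.1% of the G2/M promoters, in 4.17% of the S-phase promoters and in 15.2% of all promoters. CCAAT was present in 70.8% of the S-phase and 81.0% of the G2/M promoters, against 34.6% of all. These matches describe letters in a window and not bound sites. The bases before the start are shown for a cyclin and a proliferation marker of G2/M and for 3 S-phase genes, with the matched letters in capitals. The regions are chr15:59105026-59105145 (plus strand) for CCNB2, chr10:128126424-128126523 (minus) for MKI67, chr20:33686386-33686505 (minus) for E2F1, chr18:657533-657652 (plus) for TYMS and chr11:4094435-4094684 (plus) for RRM1. In MKI67 the last CHR element shares a base with a CCAAT on the other strand.
CCNB2: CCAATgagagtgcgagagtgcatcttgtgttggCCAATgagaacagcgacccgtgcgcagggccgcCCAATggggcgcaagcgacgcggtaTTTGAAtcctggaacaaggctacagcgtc
MKI67: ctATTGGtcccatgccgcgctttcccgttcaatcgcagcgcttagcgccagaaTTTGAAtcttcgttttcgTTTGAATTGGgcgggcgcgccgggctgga
E2F1: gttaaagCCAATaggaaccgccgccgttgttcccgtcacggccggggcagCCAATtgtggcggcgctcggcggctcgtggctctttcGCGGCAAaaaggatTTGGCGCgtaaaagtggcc
TYMS: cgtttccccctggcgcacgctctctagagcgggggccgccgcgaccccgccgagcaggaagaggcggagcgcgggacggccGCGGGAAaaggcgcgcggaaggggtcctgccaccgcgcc
RRM1: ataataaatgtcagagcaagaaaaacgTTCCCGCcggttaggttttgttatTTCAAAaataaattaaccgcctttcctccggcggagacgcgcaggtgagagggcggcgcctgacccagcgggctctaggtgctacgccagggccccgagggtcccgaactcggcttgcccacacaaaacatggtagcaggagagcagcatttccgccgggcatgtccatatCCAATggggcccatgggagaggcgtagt
In the bases shown E2F1 carried 2 E2F sites and TYMS 1, and neither carried a CHR element. RRM1 was the only one of the 16 S-phase genes with a CHR element in this window, on the minus strand.

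The libraries held between 4008293 and 38184838 estimated counts, and the smallest was the GFP library of experiment 1, against 18365999 for the next. The lowest count of any of the 42 genes in that library was 54, for CDC25C. TYRO3 was at 53.1, 47.3 and 56.6 CPM (counts scaled to the library total) with GFP in experiments 1, 2 and 3 and between 1181 and 3694 CPM in the 9 other libraries, with log2 fold changes against GFP of 5.14 with WT, 5.21 with ΔGS and 4.92 with ΔADAM. The level does not tell the 3 forms of TYRO3 apart. The melanocyte markers PMEL (between 745 and 1354 CPM) and SOX10 (between 346 and 604 CPM) were expressed in all libraries. Of 12 markers of other skin cells, KRT5 and KRT1 of keratinocytes were at 0 in all libraries, while KRT10 of keratinocytes was between 30.3 and 51.8 CPM and CD68 of macrophages between 30.7 and 36.5 CPM. The other 8 did not exceed 3.90 CPM. The ΔGS library of experiment 3 stood apart from the others in that genes with long transcripts were low and genes with short transcripts high, as described with the G2/M genes.

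All 42 genes were expressed. In TPM, a unit scaled for transcript length as well as library total, the means over the 12 libraries ran from 14.3 for CDC25C, the phosphatase that activates CDK1, to 316 for TYMS, the thymidylate synthase. The median over all tested genes was 16.6 TPM. The 5 highest were S-phase genes, with CDK2 (312 TPM), the sliding clamp PCNA (292), and the helicase subunits MCM4 (286) and MCM7 (237) after TYMS, and the next was cyclin B1, CCNB1 (213). Of the MCM7 counts 63.4% were assigned to a transcript with a retained intron, and between 18.7% and 38.3% per library to protein-coding transcripts, so that its level includes RNA that is not annotated as coding. For MCM4 the TPM of 475 in the GFP library of experiment 1 was the highest of its 12 values, the lowest of which was 229, while its CPM ranged only from 385 to 488. Within the G2/M genes, UBE2C and CDC20 followed CCNB1 at 167 TPM each, and the kinesin CENPE was at 18.6 TPM.

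The levels varied little over the 12 libraries. The coefficient of variation in CPM had a median of 9.28% for the S-phase genes and 10.1% for the G2/M genes. It was lowest for the helicase subunit MCM2 (4.59%), and the highest library was less than 1.5 times the lowest for 14 of the 20 S-phase and 13 of the 22 G2/M genes. The exceptions at the upper end were UHRF1, a reader of methylated DNA, with 47.3%, and MKI67, the Ki-67 antigen, with 21.7%.

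Each transfection was compared with GFP by the quasi-likelihood test of edgeR across all 15098 genes, with a term for each experiment. A gene was called when the fold change exceeded 1.5 and the adjusted p was at most 0.05. With WT TYRO3 0 of the 42 cell cycle genes were called, while 2.35% of all tested genes were (1.66% higher and 0.689% lower). With ΔGS 0 of 42 were called against 4.68% of all genes (2.8% higher and 1.88% lower), and with ΔADAM 0 of 42 against 5.2% of all genes (3.15% higher and 2.05% lower). DESeq2 and limma on log2 TPM called 0 of the 42 in each of the 3 comparisons as well. At an unadjusted p under 0.05 the numbers were 2 of 42 with WT (21.5% of all genes), 8 with ΔGS (26.6%) and 7 with ΔADAM (27.4%). Without the GFP library of experiment 1 the numbers were 2, 3 and 2 of 42, beside 2203, 3187 and 3050 of all 15328 genes. Without the ΔGS library of experiment 3 they were 4, 7 and 12 of 42, beside 4234, 4097 and 5162 of 15339. The ΔADAM number was 4, 2 and 2 without its own library of experiment 1, 2 or 3. Over all genes it was 3127 of 15293, 3859 of 15428 and 2657 of 15340. That with ΔGS was 4 without the GFP library of experiment 3 (3107 of 15432 genes). It was 10 without the WT library of experiment 1 (4064 of 15343). That with WT was 5 without the WT library of experiment 3 (3324 of 15437) and 3 without that of experiment 2 (2573 of 15417). With a trend with transcript length removed, as described with the G2/M genes, the numbers were 4, 11 and 9 of 42. Over all 15098 genes they were then 3967, 4635 and 4936. Without the fold threshold, RRM1 and TYMS passed the adjusted p with ΔADAM, both lower, where 10.2% of all genes passed and 5.32% passed as lower. With WT 0 of the 42 passed (3.58% of all genes) and with ΔGS 0 of the 42 (8.94%), with TYMS at 0.0511 with WT and RRM1 at 0.0508 with ΔGS. Under DESeq2 TYMS passed in all 3 comparisons (0.00509, 0.0343 and 0.00586) and RRM1 with ΔGS and ΔADAM (0.00902 and 0.00521), so that passing was not particular to ΔADAM. TYMS also passed in all 3 without the ΔGS library of experiment 3 (0.0198, 0.0312 and 0.0112). The 3 comparisons share the GFP libraries and are not independent of each other.

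The median log2 fold change of the S-phase genes was 0.0027 with WT, 0.057 with ΔGS and -0.013 with ΔADAM. Its sign changed with single libraries, since leaving out 1 library gave -0.031 to 0.039 with WT, -0.028 (without the ΔGS library of experiment 3) to 0.095 with ΔGS and -0.051 to 0.044 with ΔADAM. For the G2/M genes it was -0.081 with WT, -0.071 with ΔGS and -0.11 with ΔADAM, and over all tested genes it lay between -0.0025 and 0.0067. The G2/M medians within experiments were -0.23, 0.017 and -0.051 with WT in experiments 1, 2 and 3. They were -0.083, -0.12 and -0.059 with ΔGS, and -0.086, -0.12 and -0.12 with ΔADAM. The median was thus below 0 in each experiment with the cleavage-resistant forms and in experiments 1 and 3 with WT. Without the WT library of experiment 1 the WT median was -0.0011, and from TPM values with limma the G2/M medians were 0.029 with WT, -0.072 with ΔGS and -0.019 with ΔADAM, where the medians of all genes were 0.064, 0.0089 and 0.059. The S-phase medians within experiments had both signs in every comparison, and were -0.059, 0.046 and -0.016 with WT, -0.084, -0.030 and 0.11 with ΔGS, and -0.050, -0.018 and 0.0071 with ΔADAM.

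The libraries of most cell cycle genes overlapped between the groups. All 3 WT libraries lay below every GFP library for RRM1, TYMS, AURKB, CENPF and FOXM1 (11.0% of all tested genes did) and above for KIF11, a spindle kinesin (9.86%). All 3 ΔGS libraries lay below for RRM1, BUB1, CENPF, KIF20A and FOXM1 (10.1%) and above for 0 of the 42 (10.7%). The ΔADAM libraries lay below for RRM1, TYMS, CDK2, CCNB1, AURKB, CENPF, KIF20A and FOXM1 (14.0%) and above for 0 of the 42 (11.6%). In all 9 TYRO3 libraries together RRM1, CENPF and FOXM1 lay below (5.31%) and 0 of the 42 above (4.9%). These separations are in CPM, and in TPM the groups overlapped for all 3 of these genes. TYMS, in contrast, lay in TPM between 350.4 and 371.7 with GFP and at no more than 335.4 in any TYRO3 library. CCNB2 was at no more than 72.83 TPM with GFP, and at no less than 75.31 with WT and 75.96 with ΔGS. The share of all genes separated in TPM was not counted.

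**Figure D1:**
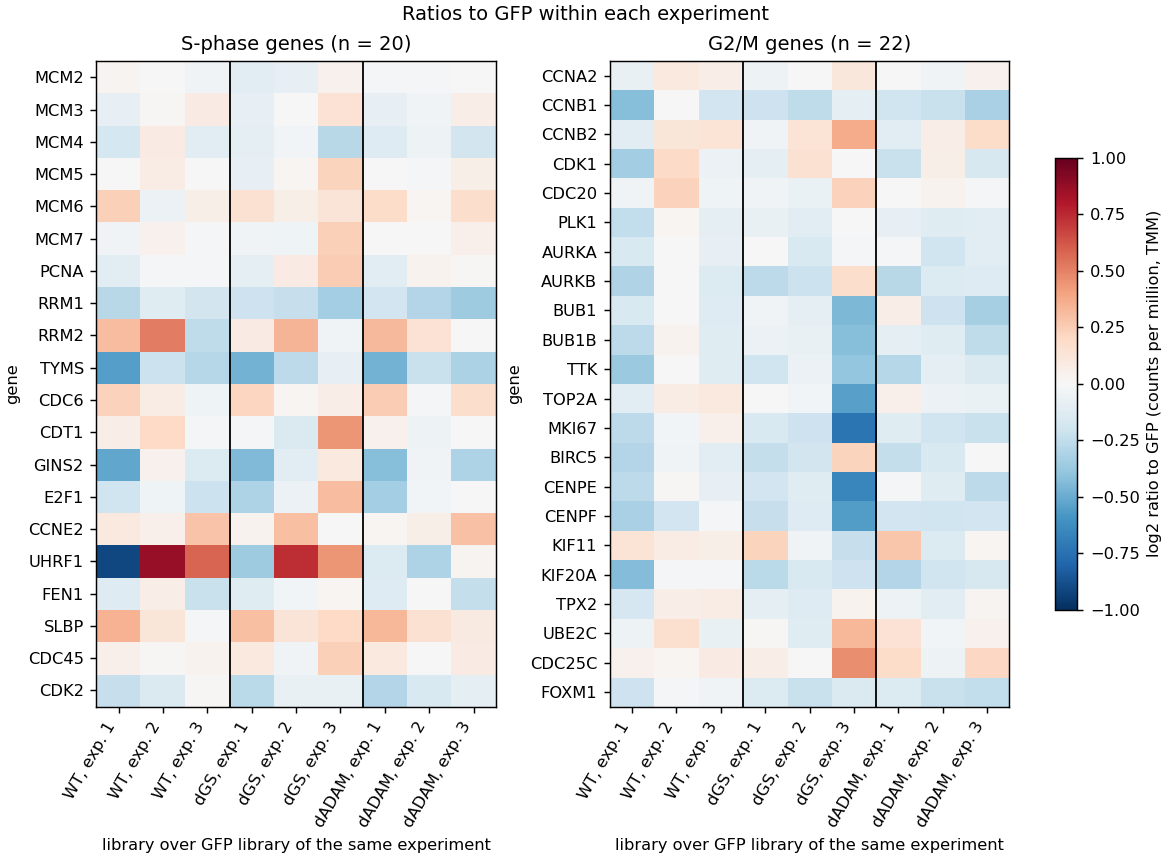
Heat map of the log2 ratio of each TYRO3 library to the GFP library of the same experiment, from TMM-scaled CPM, for the 20 S-phase genes (left) and the 22 G2/M genes (right); columns are the 3 experiments of WT, ΔGS (dGS) and ΔADAM (dADAM). TYMS and RRM1 are below 0 in all 9 columns, UHRF1 runs from -0.91 to 0.87, and the ΔGS column of experiment 3 holds both the lowest G2/M ratio, MKI67 at -0.73, and the highest, CDC25C at 0.46.

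The intervals of the fold changes bound the size of a difference that these libraries could hold. The 95% interval lay within a 1.5-fold change in both directions for 19 of the 20 S-phase genes in each comparison with GFP, and the exception was UHRF1. It did so for 22 of the 22 G2/M genes with WT and with ΔADAM and for 21 with ΔGS, where MKI67 reached -0.64. The median half-width of the interval was 0.20 in log2 in each comparison.

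**Figure D2:**
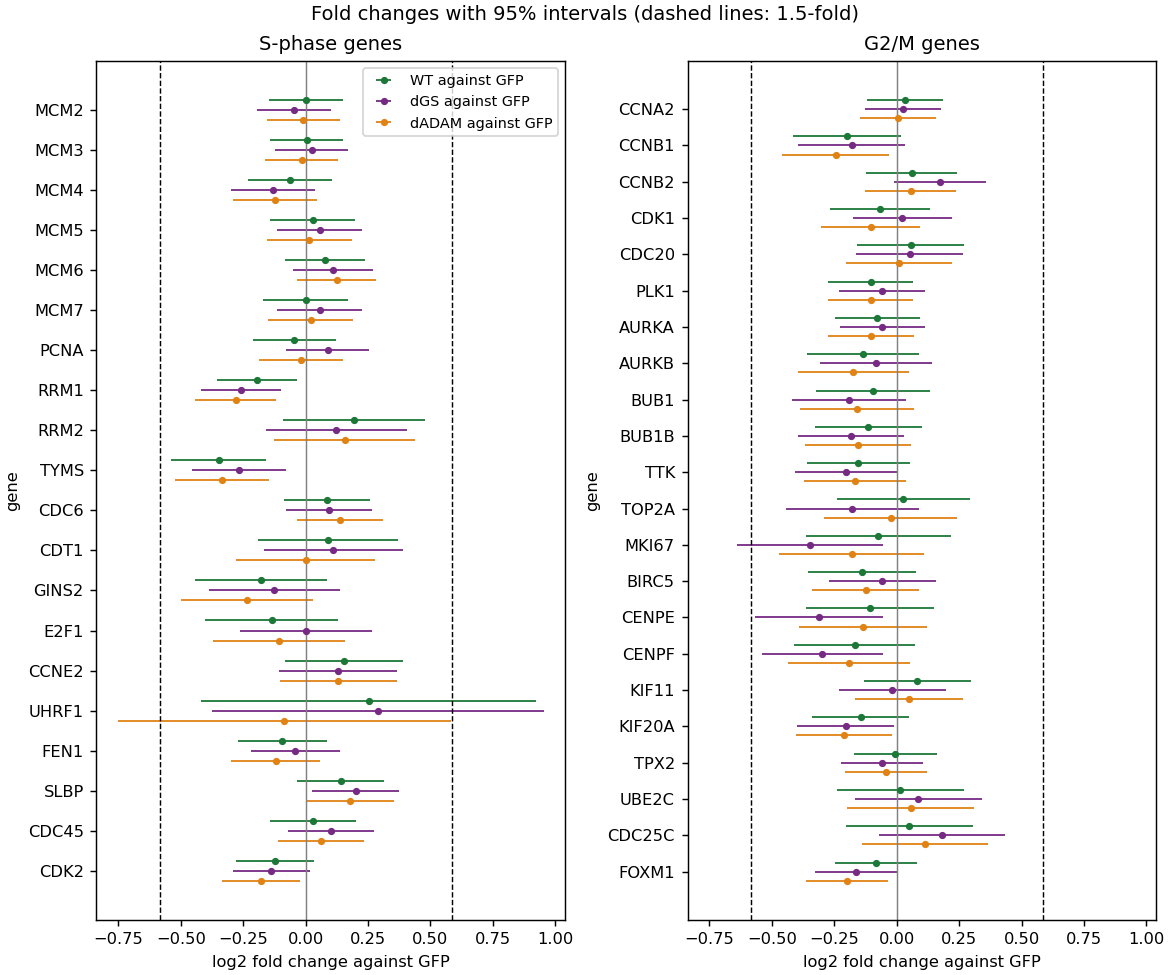
Log2 fold change against GFP with its 95% interval from the edgeR fit (n = 3 libraries per group) for the S-phase genes (left) and the G2/M genes (right), with the 3 TYRO3 groups in 3 colours. Dashed lines mark a 1.5-fold change. The interval of UHRF1 crosses the upper line with WT (0.92) and ΔGS (0.95) and the lower line with ΔADAM (-0.75), and that of MKI67 crosses the lower line with ΔGS (-0.64).

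The subunits of the MCM helicase, which unwinds DNA at the fork, had small fold changes in all 3 comparisons. The log2 fold changes of the 6 lay between -0.063 (MCM4) and 0.077 (MCM6) with WT, -0.13 and 0.11 with ΔGS and -0.12 and 0.12 with ΔADAM, from the same 2 genes. MCM2 was at 153, 142 and 150.1 CPM with GFP, 157, 142 and 146 with WT, 143, 134 and 154 with ΔGS and 151, 140.4 and 151 with ΔADAM. MCM4 was at 488, 427 and 466 CPM with GFP, 433, 453 and 434 with WT, 460.1, 419 and 385 with ΔGS and 446, 413 and 409 with ΔADAM. The values of MCM2 overlapped between all groups, and those of MCM4 were lower than GFP in 8 of the 9 ratios within experiments. Of the MCM2 exon bases 22.7% are shared with the antisense gene AC023593.1 on the opposite strand.

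Among the other proteins of the fork, the clamp PCNA was at 229, 203 and 229.5 CPM with GFP, 213, 200.2 and 227 with WT, 215, 215 and 274 with ΔGS and 213, 208 and 231 with ΔADAM. FEN1, the nuclease that trims Okazaki fragments, was at 253, 241 and 285 CPM with GFP, 231, 252 and 244 with WT, 232, 236 and 289 with ΔGS and 231, 242 and 241 with ΔADAM. For both genes the groups overlapped, and the highest PCNA value was in the ΔGS library of experiment 3.

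The enzymes that supply deoxynucleotides had values on both sides of the GFP libraries. TYMS, which makes thymidylate, was at 309.5, 278 and 308 CPM with GFP, 212, 239 and 253 with WT, 224, 233 and 292 with ΔGS and 224, 238 and 248 with ΔADAM. Its GFP libraries were the highest of their experiment in each case, and the WT and ΔADAM libraries lay below all 3 GFP libraries. The log2 fold change was -0.35 with WT (standard error 0.086, adjusted p = 0.0511), -0.27 with ΔGS (0.086, adjusted p = 0.077) and -0.34 with ΔADAM (0.086, adjusted p = 0.035), by edgeR with Benjamini-Hochberg adjustment. That is a level 0.786, 0.832 and 0.792 times that with GFP, and the ratio was below 1 in 9 of 9 comparisons within experiments, where 13.9% of all genes were. Without the GFP library of experiment 1 the fold change with ΔADAM was -0.23 and its adjusted p 0.177. Of the annotated exon bases of TYMS 39.1% are shared with ENOSF1 on the opposite strand, and reads from that stretch cannot be told apart unless strand was used in the counting, which is not given in the sources used here. ENOSF1 itself had log2 fold changes of -0.032, 0.11 and 0.087, with adjusted p-values of 0.876, 0.423 and 0.539.

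RRM1, the large subunit of ribonucleotide reductase, was at 209, 209 and 211 CPM with GFP, 173, 192 and 185 with WT, 182, 178 and 166 with ΔGS and 183, 170.0 and 165 with ΔADAM. In CPM the 9 TYRO3 libraries all lay below the 3 GFP libraries, as did 5.31% of all tested genes. In TPM the groups overlapped, with 102.9 for GFP and 103.9 for WT in experiment 3. The log2 fold change was -0.20 with WT (standard error 0.073, adjusted p = 0.153), -0.26 with ΔGS (0.073, adjusted p = 0.0508) and -0.28 with ΔADAM (0.073, adjusted p = 0.0366). When the block for each experiment was replaced by a term for experiment 1 alone, the ΔADAM value had an adjusted p of 0.0896 and that of TYMS an adjusted p of 0.109. RRM2, the small subunit whose level is cell cycle-dependent, was at 246, 181 and 235 CPM with GFP, 305, 258 and 197 with WT, 260.2, 229 and 229 with ΔGS and 309, 200.3 and 236 with ΔADAM. It was higher than GFP in 7 of the 9 ratios and its fold changes, 0.19, 0.12 and 0.16 in log2, did not pass the test, with adjusted p-values of 0.424, 0.588 and 0.471. The exons of RRM2 share 20.2% of their bases with AC007240.1 on the same strand.

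The 4 genes of origin licensing and firing, CDC6, CDT1, GINS2 and CDC45, had log2 fold changes between -0.24 (GINS2 with ΔADAM) and 0.14 (CDC6 with ΔADAM), with a smallest adjusted p of 0.229. E2F1, the activator of the S-phase genes, was at 54.4, 41.3 and 41.4 CPM with GFP, 47.5, 40.1 and 35.7 with WT, 43.95, 39.8 and 51.3 with ΔGS and 43.1, 40.6 and 41.6 with ΔADAM. CCNE2, a cyclin E that drives entry into S phase, was at 41.8, 37.4 and 29.02 CPM with GFP, 44.8, 38.7 and 35.5 with WT, 42.95, 46.2 and 29.1 with ΔGS and 42.5, 38.9 and 35.5 with ΔADAM. The groups overlapped for both, although CCNE2 was above GFP in all 9 ratios, as were 12.5% of all genes. The exons of CCNE2 share 37.0% of their bases with INTS8 on the opposite strand. CDK2, the kinase bound by cyclin E and cyclin A, was at 328, 354 and 339.5 CPM with GFP, 279, 319.5 and 342 with WT, 273, 336 and 323 with ΔGS and 267, 317 and 319 with ΔADAM. Its ΔADAM libraries lay below all GFP libraries, and the fold change of -0.18 did not pass the test (adjusted p = 0.128). Of the CDK2 exon bases 14.5% overlap the antisense gene AC025162.1 and 2.3% the pigment gene PMEL, both on the opposite strand.

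SLBP binds the stem-loop of histone mRNAs and was at 79.4, 79.3 and 98.8 CPM with GFP, 101, 85.98 and 97.7 with WT, 97.99, 86.8 and 113 with ΔGS and 99.9, 88.01 and 105 with ΔADAM. It was above GFP in 8 of the 9 ratios, and its log2 fold changes of 0.14, 0.20 and 0.18 had adjusted p-values of 0.338, 0.134 and 0.170. UHRF1 was at 84.7, 42.4 and 21.1 CPM with GFP, 45.2, 77.5 and 31.5 with WT, 66.3, 70.8 and 28.6 with ΔGS and 77.2, 34.2 and 21.5 with ΔADAM. The UHRF1 values differed up to 4.02 times between libraries and had no order by group, since WT was below GFP in experiment 1 and above it in experiments 2 and 3.

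**Figure D3:**
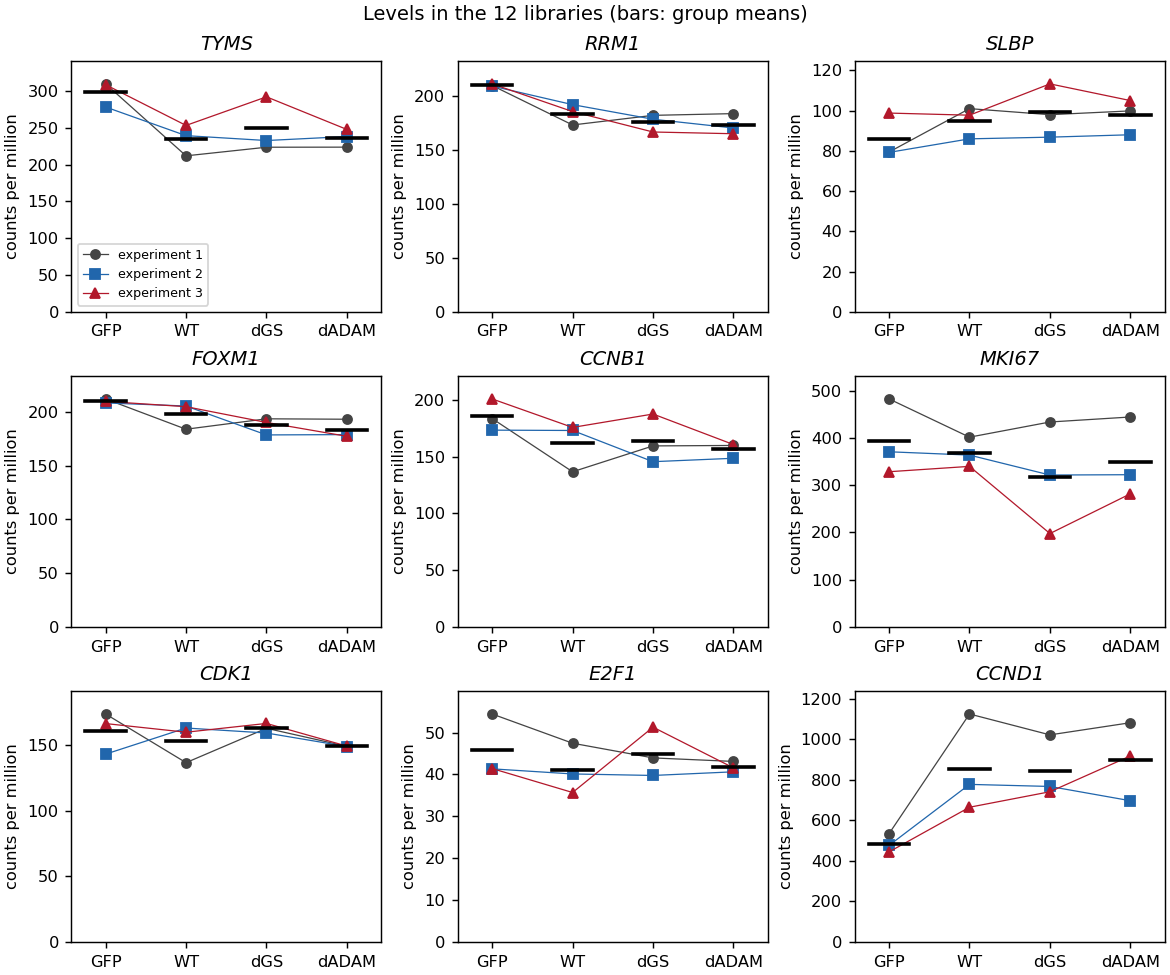
CPM (vertical axes from 0) of 8 of the cell cycle genes and of cyclin D1 (CCND1) in each of the 12 libraries, with groups along the horizontal axis, lines joining the libraries of 1 experiment and bars at the group means. RRM1 is below the 3 GFP libraries in all 9 TYRO3 libraries, MKI67 falls to 198 CPM in the ΔGS library of experiment 3, and CCND1 is between 664 and 1124 CPM with TYRO3 against 444 to 534 with GFP.

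Among the mitotic cyclins and their kinase, CCNB1 was at 184, 173 and 201 CPM with GFP, 137, 173 and 176 with WT, 159.5, 146 and 188 with ΔGS and 159.9, 149 and 161 with ΔADAM. It was below GFP in all 9 ratios, by as little as -0.0027 in log2 with WT in experiment 2, and the test was not passed at -0.20, -0.18 and -0.24 in log2 (adjusted p = 0.268, 0.265 and 0.131). CCNB2, the other B-type cyclin, was at 72.1, 57.7 and 66.9 CPM with GFP, 66.7, 62.7 and 73.8 with WT, 70.6, 63.5 and 86.8 with ΔGS and 66.9, 60.2 and 76.2 with ΔADAM. CDK1, the kinase that these cyclins activate, was at 174, 143 and 167 CPM with GFP, 137, 163 and 159.9 with WT, 163, 159 and 167 with ΔGS and 149, 149 and 149 with ΔADAM. In CPM CCNB2 and CDK1 overlapped between all groups, with CDK1 below GFP in 5 of the 9 ratios. CCNA2 and CDC25C had log2 fold changes between 0.0047 and 0.18.

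The mitotic kinases PLK1, AURKA and AURKB had log2 fold changes between -0.17 and -0.058 in the 3 comparisons, with a smallest adjusted p of 0.296. PLK1, which acts from centrosome maturation to cytokinesis, was at 169, 144 and 176 CPM with GFP, 142, 146 and 165 with WT, 161, 133 and 176 with ΔGS and 159.7, 133 and 162 with ΔADAM. The 3 kinetochore genes of the spindle checkpoint, BUB1, BUB1B and TTK, were between -0.20 and -0.095, with a smallest adjusted p of 0.193. TTK, the checkpoint kinase also named MPS1, was at 97.04, 79.1 and 81.5 CPM with GFP, 75.1, 79.3 and 74.97 with WT, 84.7, 76.2 and 62.4 with ΔGS and 79.8, 74.4 and 73.7 with ΔADAM. The ΔGS library of experiment 3 held the lowest value of BUB1, of BUB1B and of TTK. CDC20 and UBE2C, which act with the anaphase promoting complex, had log2 fold changes between 0.0083 and 0.086, and BIRC5 (survivin), TPX2 and the kinesin KIF11, all of the mitotic spindle and its passengers, between -0.14 and 0.083.

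FOXM1, the transcription factor of many G2/M genes, was at 212, 209 and 209.9 CPM with GFP, 184, 206 and 205 with WT, 194, 179 and 190.3 with ΔGS and 193, 179 and 177 with ΔADAM. Its 9 TYRO3 libraries lay below the 3 GFP libraries, with log2 fold changes of -0.084, -0.16 and -0.20 and adjusted p-values of 0.560, 0.187 and 0.114. From TPM values with limma the WT change had the other sign (0.040), where the median of all genes was 0.064. Of the FOXM1 exon bases 15.9% are shared with ITFG2 on the opposite strand. ITFG2 itself had log2 fold changes of -0.25, -0.19 and -0.29, with adjusted p-values of 0.232, 0.320 and 0.1205 by edgeR. KIF20A, a kinesin of the central spindle, was at 129.7, 114 and 124 CPM with GFP, 96.3, 113 and 122 with WT, 108, 103 and 107 with ΔGS and 106, 99.3 and 110.4 with ΔADAM. It was below GFP in all 9 ratios, and its adjusted p-values were 0.374, 0.166 and 0.145. Of the 22 G2/M genes 5 (CCNB1, AURKA, CENPF, KIF20A and FOXM1) were below GFP in all 9 ratios and 0 above in all 9, against 13.9% and 12.5% of all tested genes.

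In CPM the lowest values of the G2/M genes with the longest transcripts came from 1 library. MKI67 was at 482, 371 and 328 CPM with GFP, 401, 364 and 339.6 with WT, 434, 321 and 198 with ΔGS and 444, 322 and 282 with ΔADAM. TOP2A, the topoisomerase that untangles chromosomes, was at 567, 541 and 521 CPM with GFP, 524, 571 and 558 with WT, 567, 529.9 and 358 with ΔGS and 588, 519.5 and 496 with ΔADAM. CENPF, a kinetochore protein, was at 548, 489.6 and 489 CPM with GFP, 437, 429 and 486 with WT, 468, 447 and 332 with ΔGS and 482, 427 and 429 with ΔADAM. For all 3 the lowest CPM of the 12 was that of ΔGS in experiment 3. In TPM, however, the CENPF value of that library, 157.8, was the highest of the 12. CENPE, which moves chromosomes along the spindle, was at 113, 98.1 and 111 CPM with GFP, 94.4, 99.1 and 105 with WT, 99.3, 90.4 and 70.8 with ΔGS and 112, 90.4 and 92.5 with ΔADAM. The log2 fold change with ΔGS was -0.35 for MKI67 (standard error 0.13, adjusted p = 0.124), -0.31 for CENPE (0.12, adjusted p = 0.117) and -0.30 for CENPF (0.11, adjusted p = 0.116). Without that library it was -0.16, -0.17 and -0.15.

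The dependence on length was not particular to cell cycle genes. The rank correlation between transcript length and the ratio of ΔGS to GFP in experiment 3 was -0.55 over the 42 genes, -0.83 over the 22 G2/M genes and -0.55 over the 11282 tested genes with a mean of at least 100 counts. In the other 8 pairs of libraries it lay between -0.11 and 0.22 over these 11282 genes. Genes share libraries, and these coefficients are descriptions across genes. The genes of up to 1875 bases, the lowest quartile of length, had a median log2 ratio of 0.27 in that pair and the genes from 4441 bases, the highest quartile, one of -0.32. The 5 cell cycle genes over 5000 bases (KIF11, TOP2A, CENPE, CENPF and MKI67) had a median of -0.56 and the 11 under 2000 bases one of 0.23. With a length trend taken out of each library the fold change of MKI67 with ΔGS was -0.19 (adjusted p = 0.118), and the median of the G2/M genes with ΔGS was -0.11. After that step TYMS had adjusted p-values of 0.0203, 0.0111 and 0.0105 with WT, ΔGS and ΔADAM, and RRM1 had 0.0550, 0.0167 and 0.0122, and 0 of the 42 genes were called.

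**Figure D4:**
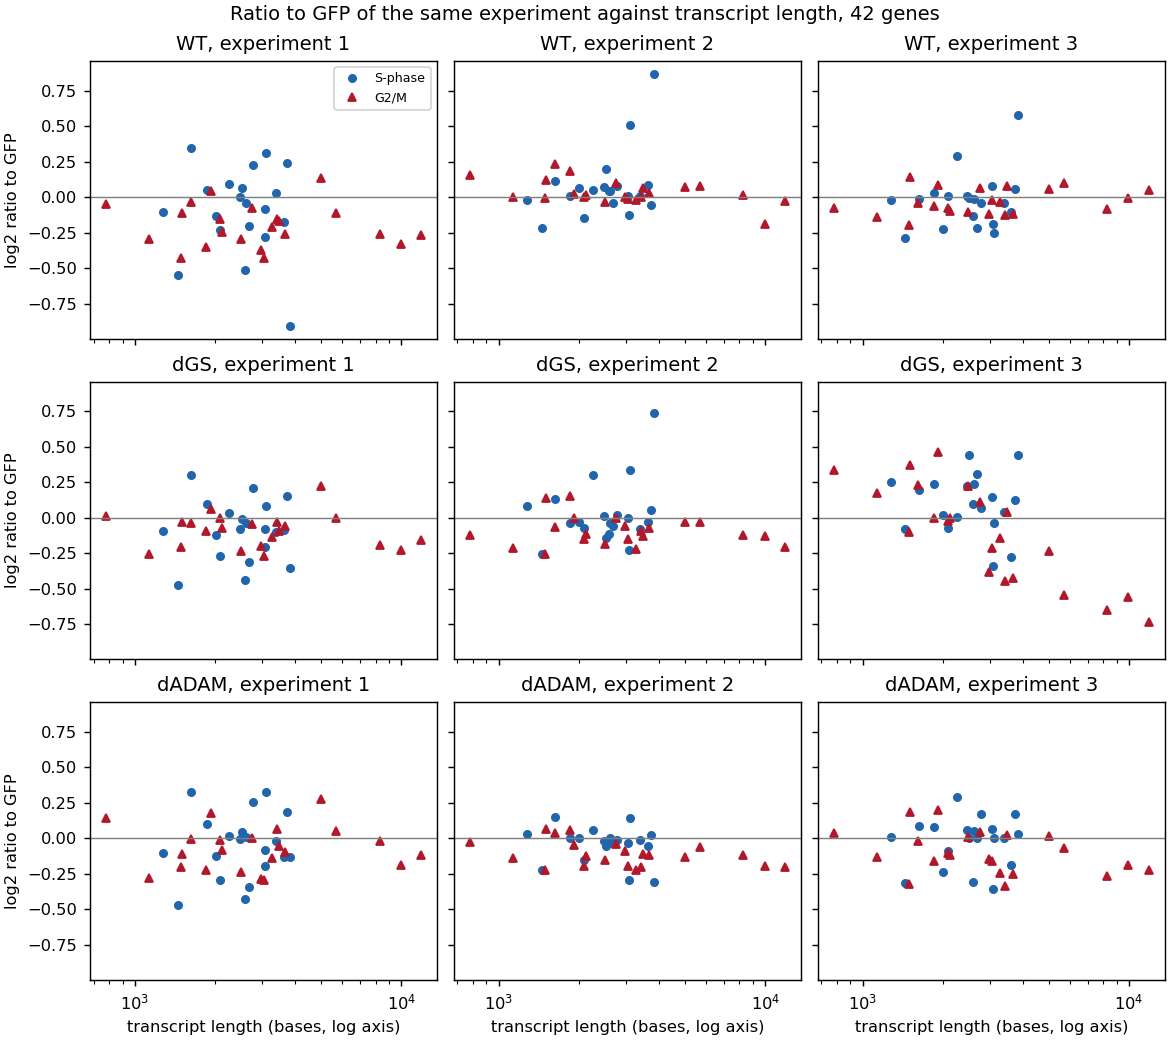
Log2 ratio to the GFP library of the same experiment against transcript length in bases (log axis, weighted by the counts of each transcript) for the 42 genes, with 1 panel for each TYRO3 library; circles are S-phase and triangles G2/M genes. In the panel of ΔGS in experiment 3 the 5 genes over 5000 bases have a median of -0.56 and the 11 under 2000 bases one of 0.23, while in the other 8 panels the rank correlation over the 42 genes is between -0.32 and 0.21.

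The forms of TYRO3 were then compared with each other, which addressed the cleavage of the receptor. Between WT and the mean of ΔGS and ΔADAM 0 of the 42 genes and 0 of the 15098 (0%) were called by edgeR, and 0 of the 42 had an unadjusted p under 0.05, against 1.57% of all genes. Without the WT library of experiment 1 that number was 4 of 42, beside 832 of all 15343 genes. Without the ΔGS library of experiment 1 it was 1, beside 347 of 15318. With experiments 2 and 3 alone it was 2, beside 638 of 14960. DESeq2 called 5 genes, and 0 of the 42 were among them. The log2 differences of the S-phase genes lay between -0.084 (E2F1) and 0.15 (UHRF1) and those of the G2/M genes between -0.097 (CDC25C) and 0.19 (MKI67, 95% interval -0.059 to 0.44). Between ΔGS and ΔADAM 0 of the 42 and 0 of the 15098 (0%) were called as well, and 0 of the 42 had an unadjusted p under 0.05, against 1.44% of all genes. With experiments 2 and 3 alone that number was 1, beside 232 of 14960 genes. DESeq2 called 1 gene, which was not one of the 42. The differences lay between -0.18 (CENPE) and 0.38 (UHRF1). The interval was within 1.5-fold for 41 of the 42 genes in both comparisons, all except UHRF1. TYRO3 itself differed by 0.073 in log2 between WT and both resistant forms (95% interval -0.35 to 0.50).

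Further genes of replication and mitosis and the regulators of G1 were examined from lists drawn up by function, with earlier results of these data known. Of 42 other replication genes 0 were called in any comparison with GFP. Without the fold threshold 2 passed the adjusted p with ΔGS (GMNN at 0.33 and RFC4 at 0.53 in log2) and 2 with ΔADAM (MCM10 at 0.38 and RFC4 at 0.43), and all of these were higher than with GFP. That is 2 of 42 in each, against 8.94% and 10.2% of all tested genes. Geminin (GMNN) inhibits licensing, RFC4 is part of the clamp loader, and MCM10 helps to start the fork. Of 48 other mitosis genes 0 were called, and without the fold threshold 4 passed with ΔGS, namely NDC80 (0.43), ESPL1 (-0.29), INCENP (-0.56) and CENPI (-0.56), and 3 of these with ΔADAM, NDC80 (0.39), INCENP (-0.46) and CENPI (-0.49). These 4 and 3 of 48 stand against the same 8.94% and 10.2% of all genes. Their medians were -0.055, -0.091 and -0.072 in the 3 comparisons, and those of the other replication genes 0.0046, 0.020 and -0.035.

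Of 24 regulators of G1, 23 were tested and 1 was called. Over all tested genes 2.35% were called with WT, 4.68% with ΔGS and 5.2% with ΔADAM. CCND1, cyclin D1, which binds CDK4 and CDK6 in G1, was at 534, 476 and 444 CPM with GFP, 1124, 777 and 664 with WT, 1021, 767 and 741 with ΔGS and 1081, 696 and 917 with ΔADAM. All 9 TYRO3 libraries lay above the 3 GFP libraries, as they did for 4.9% of all tested genes. It was called higher in all 3 comparisons, with log2 fold changes of 0.79 (standard error 0.12, adjusted p = 0.00839), 0.78 (0.12, adjusted p = 0.00603) and 0.87 (0.12, adjusted p = 0.00349), that is 1.73, 1.72 and 1.83 times the level with GFP. The call with WT was lost without the WT library of experiment 1 or of experiment 2 (adjusted p = 0.0524 and 0.0570), with a term for experiment 1 in place of the block (0.0600), with only the groups compared (0.0586) and with experiments 2 and 3 alone (0.168). With ΔGS it was lost with experiments 2 and 3 alone (0.0559), and with no batch term all 3 calls were lost (0.318, 0.182 and 0.155). Of 8 CDK inhibitors 1 was called, with ΔADAM only, against 5.2% of all tested genes. It was CDKN2C (p18), which inhibits CDK4 and CDK6. CDKN2C was at 16.3, 16.8 and 16.9 CPM with GFP, 9.50, 13.2 and 11.8 with WT, 10.8, 13.6 and 12.9 with ΔGS and 9.94, 14.04 and 8.14 with ΔADAM. All 9 TYRO3 libraries lay below the 3 GFP libraries, as they did for 5.31% of all tested genes. The log2 fold change was -0.64 with ΔADAM (adjusted p = 0.0288), and -0.53 with WT and -0.41 with ΔGS, which were not called. Between WT and the mean of the resistant forms it was -0.0018. The ΔADAM call was lost without the GFP library of experiment 1 or 3 (adjusted p = 0.107 and 0.110) and without the ΔADAM library of experiment 1 or 3 (0.0940 and 0.132). It was also lost under 6 of the other alternatives, with the highest adjusted p, 0.187, when no batch term was fitted. CDKN1A (p21), which inhibits CDK2, was at 17.9, 38.2 and 27.6 CPM with GFP, 65.8, 45.4 and 33.2 with WT, 54.9, 51.3 and 50.1 with ΔGS and 57.4, 47.3 and 54.3 with ΔADAM. At 0.66, 0.80 and 0.83 in log2 it missed the adjusted p (0.145, 0.0621 and 0.0510). Of 7 checkpoint kinases and phosphatases 0 were called, and the smallest p-values were those of the phosphatase PPM1D (-0.30 with ΔADAM, adjusted p = 0.0526), CHEK2 (0.23 with ΔGS, adjusted p = 0.207) and ATM (-0.28 with ΔGS, adjusted p = 0.293).

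Of 8 melanocyte markers, 7 had log2 fold changes below 0 and 1 above 0 in each comparison with GFP. The value above 0 was 0.66 with WT, 0.55 with ΔGS and 0.73 with ΔADAM. With ΔGS and with ΔADAM 2 of the 8 were called, against 4.68% and 5.2% of all tested genes. These were MITF and DCT, lower with ΔGS (-1.01 and -1.24) and with ΔADAM (-1.06 and -1.24). With WT they were at -0.81 and -1.02 and missed the adjusted p (0.0671 and 0.0844), but both passed it without the WT library of experiment 3 (0.0240 and 0.0138), and neither was called between WT and the resistant forms. Without the GFP library of experiment 1 none of the 4 calls was kept, with fold changes between -0.78 and -0.70. Other single libraries ended them too, and the highest adjusted p with 1 library left out was 0.0920 for MITF and 0.115 for DCT with ΔGS, and 0.111 and 0.151 with ΔADAM. Over the other alternatives it reached 0.232 and 0.322 with ΔGS and 0.200 and 0.306 with ΔADAM, in each case with no batch term. MITF is the transcription factor of the lineage and DCT an enzyme of pigment synthesis. Of 12 markers of other skin cells 5 were tested and 0 were called, with a smallest adjusted p of 0.367 (ACTA2 of smooth muscle, with ΔADAM). The part of these changes in the values of the cell cycle genes was not tested.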

How the data were processed

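Polyadenylated RNA was sequenced from 12 libraries in 3 experiments, with a strand-marking kit. Per the labels and methods, the authors trimmed the reads (PRINSEQ, Trimmomatic 0.33), checked them with FastQC 0.11.9 and assigned them with kallisto 0.46.0 to the Ensembl 96 transcripts of GRCh38. The deposited values are estimated counts, TPM and transcript lengths for each transcript, without batch correction. Estimated counts were summed per gene by GENCODE v29 symbols (169797 of 188753 transcripts matched), which held at least 97.4% of the counts of each library, and were rounded. The median library held 23302001 counts, and the precision of a fold change is given by its interval. TPM values were summed in the same way.

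Genes were kept by filterByExpr of edgeR 4.0.16 (10 counts, 15 in total), scaled by TMM (factors 0.961 to 1.03) and fitted by quasi-likelihood with group and experiment as terms, over all 12 libraries. Adjusted p-values are Benjamini-Hochberg values over all 15098 genes. The experiment number in the labels marks a shared experiment, and deviations of libraries from their group means correlated between 0.075 and 0.424 within an experiment and between -0.308 and 0.015 across experiments. The deviations of a group sum to 0 over its 3 libraries, so the range across experiments is not independent of the range within. The p-values rest on the spread between libraries that remains after the group and experiment terms, on 1 cell line. Alternatives used DESeq2 1.42.0, limma 3.58.1 on log2 TPM, other filters and subsets of libraries. A removal of the trend with transcript length in each library was added after the data were seen. The members and gene lists were chosen with earlier results of these data known. By the rule for named genes, values in every library are given for 11 core genes and for the 3 S-phase and 3 G2/M genes of smallest p in each comparison, and of each other list the genes called, or else the 3 of smallest p, are named. UHRF1 and CCNB2 follow from that rule, while ENOSF1, ESPL1, CDKN1A and the markers of other cells were named after their values were seen. Labels name a GFP plasmid as the control, which the study elsewhere describes as an empty plasmid.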

Additional observations from a re-analysis of the deposited data

How the results depend on the processing

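The call of 0 of the 42 cell cycle genes held in all 5 comparisons under every alternative run with the fold threshold. Without that threshold 2 S-phase genes (RRM1 and TYMS) passed with ΔADAM in the main fit. Under DESeq2 and with the length trend removed, TYMS passed the adjusted p in every comparison with GFP. RRM1 did so there with ΔGS and ΔADAM. The number of all genes called moved more. Without a replicate block, with a term for experiment 1 only, it was 6 with WT, 69 with ΔGS and 168 with ΔADAM, and with no batch term 3, 4 and 5. With experiments 2 and 3 alone it was 47, 189 and 218. With only the groups compared it was 30 with WT and 469 with ΔGS. DESeq2 called 611 with WT, 5 between WT and both resistant forms and 1 between ΔGS and ΔADAM. Without a filter on low counts 577 were called with WT and 2 between WT and the resistant forms. limma on log2(TPM + 1) called 233, 418 and 499, and with a pseudocount of 0.1 it called 228, 423 and 518. Without a fold threshold the numbers were 541, 1350 and 1538. Leaving out 1 library at a time gave between 79 (without the WT library of experiment 1 or of experiment 2) and 606 (without that of experiment 3) with WT, between 269 (without the GFP library of experiment 1) and 778 with ΔGS, between 198 (without the ΔADAM library of experiment 3) and 870 with ΔADAM, and between 0 and 1 for ΔGS against ΔADAM. The number also moved by over 1.5 times without the GFP library of experiment 1 (148 with WT and 288 with ΔADAM), without that of experiment 3 (408 with ΔGS), without the ΔADAM library of experiment 1 (222 with WT and 283 with ΔADAM) and without the ΔGS library of experiment 1, 2 or 3 (421, 323 and 470 with ΔGS).

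The S-phase median with WT was 0.0849 and 0.0857 with the limma pseudocounts of 1 and 0.1. With ΔADAM it was 0.0422 and 0.0425, and 0.0248 with experiments 2 and 3 alone. The G2/M median with ΔADAM was -0.0187 and -0.019 with limma, and -0.0931 when every library needed at least 10 counts. Between ΔGS and ΔADAM it was -0.0482 and -0.0485 with limma. With the length trend removed the G2/M median with ΔGS was -0.1116. Leaving out 1 library gave S-phase medians with ΔADAM between -0.0512 and 0.0439, and G2/M medians between -0.1165 and -0.0316 with ΔGS and between -0.1499 and -0.0826 with ΔADAM. Over all tested genes the limma medians, with pseudocounts of 1 and 0.1, were 0.0638 and 0.0794 with WT. They were 0.0586 and 0.0735 with ΔADAM, and -0.0449 and -0.0552 between ΔGS and ΔADAM. The cause of the shifts of the S-phase and G2/M medians was not tested. When 1 library was left out, the adjusted p of TYMS ran from 0.0198 to 0.245 with WT, 0.0312 to 0.285 with ΔGS and 0.0112 to 0.177 with ΔADAM, and that of RRM1 from 0.0748 to 0.528, 0.042 to 0.178 and 0.0164 to 0.184. The replicate block changed no other call among the 42 genes. The GFP library of experiment 1, at 4008293 counts, is the shallowest and limits the precision of experiment 1.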

Other observations

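Over the 12 libraries together, 78.6% of the TYMS counts were assigned to 1 transcript (TYMS-203) and 19.6% to a transcript annotated as processed (TYMS-205). Of the RRM1 counts 94.9% were assigned to 1 transcript (RRM1-201). Per library, protein-coding transcripts held between 67.93% and 81.15% of the TYMS counts and between 69.95% and 99.57% of the RRM1 counts.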
